A study of Homo sapiens with 24 samples.

Results

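The genes described here make, oxidize and move the acylceramides of the outer epidermis. They were chosen by symbol, as every array probe annotated to ELOVL4, CYP4F22, CERS3, PNPLA1, ABHD5, UGCG, ABCA12, ALOX12B, ALOXE3 or SDR9C7, a rule that uses no measured value. The 10 genes have 13 of the 47304 probes and are 10 of the 20038 genes with a probe of their own. SDR9C7 has 3 probes, ABCA12 has 2 and each of the others has 1. All 10 were among the 12149 features tested, 1 feature being the brightest kept probe of a gene or an unnamed probe.

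Acylceramides are ceramides with an ultra-long fatty acid whose far end carries an ester of linoleic acid. Keratinocytes of the granular layer build them, glucosylate them and pack them into lamellar granules, and after secretion the oxidized linoleate is removed so that the remaining ceramide can be bound to the protein envelope of the corneocyte as the lipid envelope. Inherited loss of function of most of these genes gives ichthyosis, a scaling skin disease with a leaky barrier.

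RNA was measured on 24 Illumina bead arrays, 4 in each of 6 groups. The cells were N/TERT1, human keratinocytes made immortal with telomerase, which can be driven to differentiate by raising calcium. Of the 5 groups taken at day 6 of culture in 1.2 mM calcium, 4 had received a compound at day 3. These were 50 µM EGBG together with 1 mM spermidine/spermine (EGBG plus SDSM), 50 µM EGBG alone (EGBG), 1 mM spermidine/spermine alone (SDSM) and 1 mM putrescine alone (PUT). The fifth group was differentiated without a compound (day 6). The sixth was taken at day 0, before the switch, in 0.3 mM calcium (undifferentiated). Whether 1 mM of each polyamine or 1 mM in all was given is not stated in the labels. EGBG, ethylglyoxal bis(guanylhydrazone), blocks AMD1, which supplies the aminopropyl groups that turn the diamine putrescine into spermidine and spermine. The comparisons ask whether these genes depend on that step and whether adding its products makes up for the block.

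Each array detected 10348 to 13089 probes at a detection p under 0.01. Arrays of a group correlated across features at r of at least 0.965. The keratinocyte markers KRT5, KRT14, KRT10, SFN, PERP and DSC3 were detected on all 24 arrays, DSG1 and IVL on 0 of 4 undifferentiated arrays, and TP63 was not analysed here. Of the markers of other cell types, 4 of 6 melanocyte, 5 of 8 fibroblast and 5 of 8 immune and endothelial genes were undetected on every array, among them MLANA, TYR, SOX10, COL1A2, COL3A1, PTPRC, CD3E and PECAM1. The summed signal of the fibroblast list was 415 to 742 intensity units on EGBG arrays, 492 to 1103 on day 6 arrays and 267 to 359 on undifferentiated arrays, and that of the melanocyte list 128 to 265, 225 to 450 and 62.4 to 79.7. COL1A1 was detected on all 24 arrays. FAP was detected on 0 of 4 EGBG arrays and on all 4 arrays of each other group. PMEL was detected on 0 of 4 undifferentiated arrays and on all arrays of the other groups. DCN was detected on 2 EGBG arrays and MITF on 1 EGBG plus SDSM array. The immune and endothelial sum, in which CD68 was detected on all 24 arrays, was 4261 to 4877 on EGBG arrays, 3459 to 5930 on day 6 arrays and 4300 to 6286 on undifferentiated arrays. Within that list CD207, a marker of Langerhans cells, was detected on all arrays of the 5 day 6 groups and on 0 of 4 undifferentiated arrays, a rise of at least 8.46-fold at day 6. CD207 differed by -1.22 ± 0.42 with EGBG (adjusted p = 0.0222), while CD1A and PTPRC were undetected throughout. The part of such signals in the results below was not tested. The line is 1 immortalized line, and the series record calls the 4 arrays of a group biological replicates without saying whether they came from separate cultures. The p-values therefore measure only the spread between these samples.

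Values below are background-corrected, quantile-normalized log2 signals. Differences are between group means, given in log2 ± SE with n = 4 arrays on each side, and adjusted p-values come from limma over the 12149 features, with 0.05 as the threshold. Levels of different genes are not set against each other, because each probe has its own response. Where a gene was undetected on every array of a group, the fold is a bound, written as "at least" and taken against the lowest detected signal of each array.

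All 10 genes were higher in day 6 than in undifferentiated cells, against 23.8% of all features called higher and 57.6% called in either direction. The median difference of the 10 was 3.25, or 2.86 with the undetected genes at their bounds, while the median of all features was -0.10. The day 6 arrays lay above the undifferentiated arrays without overlap for all 10, against 19.9% of features. CYP4F22, PNPLA1, ABCA12 and SDR9C7 were undetected on all 4 undifferentiated arrays, and 1 of those arrays detected ALOX12B. All of these genes, ALOX12B included, were kept for testing through the differentiated groups. Their rise was thus built into their being tested. Calcium and days in culture changed together and cannot be told apart. In bulk RNA, more cells expressing a gene and more RNA per cell cannot be told apart either.

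Of the genes that build the ceramide, ELOVL4, which lengthens fatty acids to the ultra-long chains, had log2 signals of 13.37, 13.73, 12.88 and 13.32 on the day 6 arrays, against 9.49, 9.44, 9.28 and 9.15 on the undifferentiated arrays. Its difference was 3.99 ± 0.16 (adjusted p = 1.23e-16). CYP4F22, the cytochrome that hydroxylates the far end of those chains, had 10.09, 11.10, 10.19 and 11.22 in day 6 cells. It was undetected on the undifferentiated arrays, where its signals were 5.17, 5.23, 5.24 and 5.27, and the rise was at least 18.1-fold (adjusted p = 1.62e-15). CERS3, the ceramide synthase that joins these acids to the sphingoid base, had 10.18, 10.20, 10.33 and 9.995 in day 6 cells and 8.16, 7.98, 7.58 and 8.07 in undifferentiated cells. Its difference was 2.23 ± 0.15 (adjusted p = 4.94e-12), and the gene was detected on every array of both groups.

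PNPLA1, which transfers linoleate onto the hydroxylated ceramide, rose at least 5.75-fold in day 6 cells, to a mean of 8.996 ± 0.39 (SD). ABHD5, the coactivator that PNPLA1 shares with other lipases, averaged 11.07 ± 0.47 (SD) in day 6 and 8.19 ± 0.19 in undifferentiated cells, a difference of 2.88 ± 0.17. The first day 6 array stood at 10.43 for ABHD5, below the 11.003 to 11.44 of the other three, and still above every undifferentiated array. UGCG, the glucosylceramide synthase, rose by 2.41 ± 0.22, with day 6 arrays from 10.20 to 11.13 and undifferentiated arrays from 7.70 to 8.77. ABCA12, the transporter that loads glucosylated lipids into lamellar granules, rose at least 9.52-fold.

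The lipoxygenases ALOX12B and ALOXE3, which act in turn on the esterified linoleate, both rose. ALOX12B had 13.13, 13.05, 11.94 and 13.06 in day 6 cells, against 5.98, 6.83, 6.28 and 6.35 in undifferentiated cells, of which 1 of 4 arrays detected it. Its fitted difference was 6.43 ± 0.25, measured against a group mostly at background. ALOXE3 was detected on all 8 arrays and rose by 2.84 ± 0.12, with 9.54, 9.73, 9.41 and 9.79 against 6.95, 6.70, 6.61 and 6.87. Both genes lie side by side on chromosome 17 in the RefSeq annotation of GRCh38.p14, with a long noncoding RNA and a microRNA annotated between them and no other protein-coding gene. SDR9C7, the dehydrogenase that oxidizes the lipoxygenase product further, was the most scattered of the 10 in day 6 cells, at 8.80, 7.05, 8.29 and 7.47, and rose at least 2.70-fold over undifferentiated arrays that did not detect it.

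**Figure D1:**
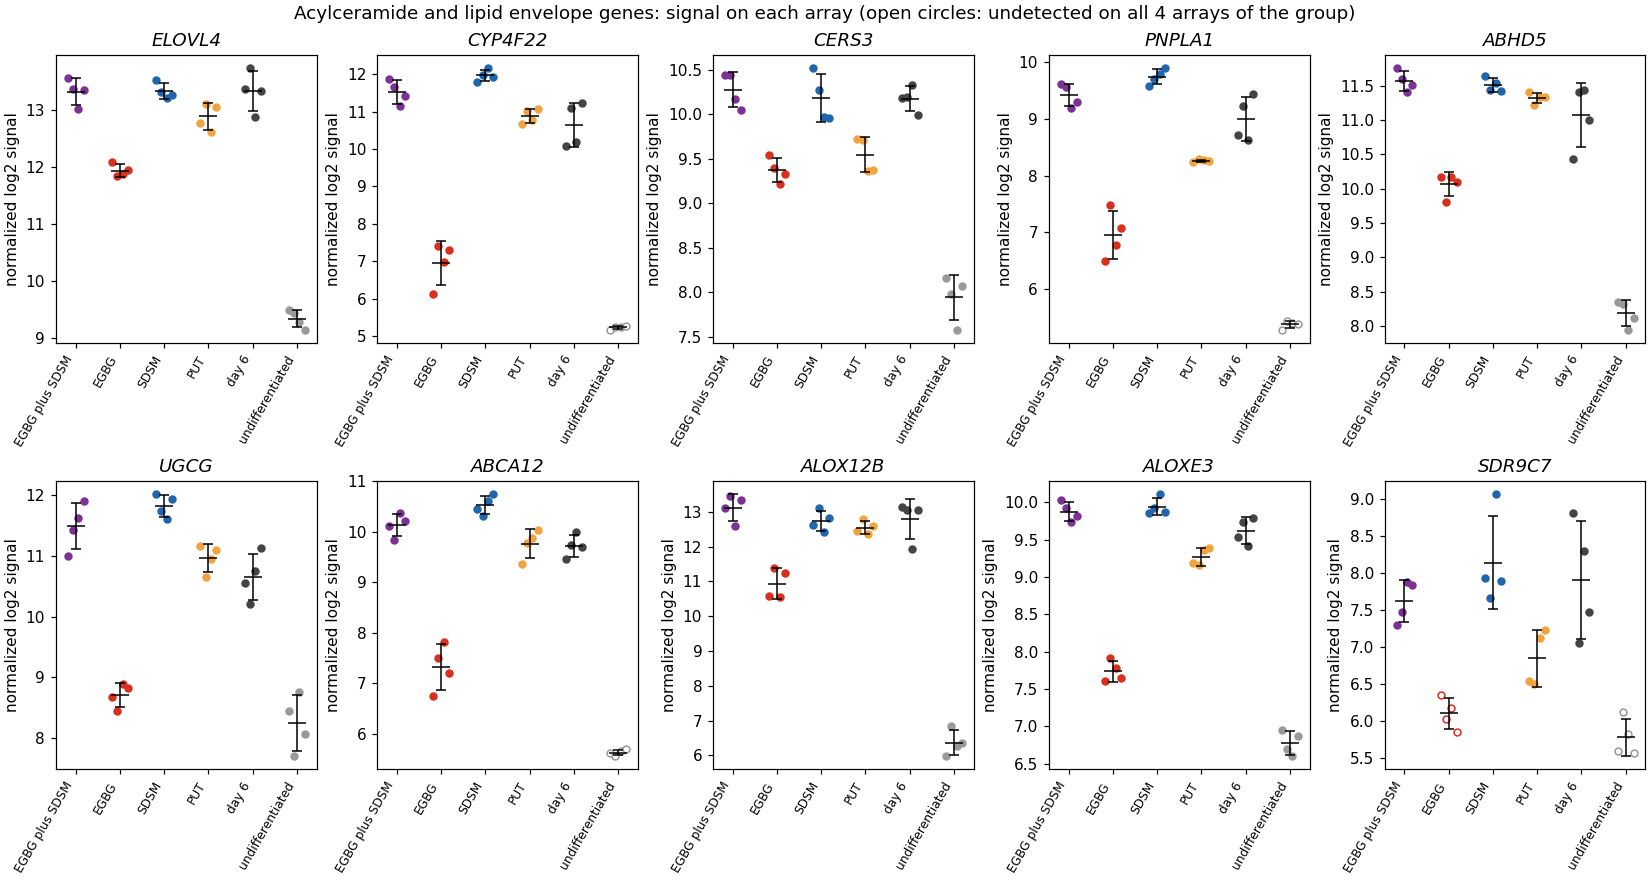
Normalized log2 signal (vertical axis) of each gene on each array, by group (horizontal axis), with the mean and SD in black. Open circles mark groups in which no array detected the gene. The EGBG arrays lie below the arrays of the EGBG plus SDSM, SDSM and day 6 groups for all 10 genes, and SDR9C7 is the gene with the widest scatter in day 6 and SDSM cells.

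The sequences ahead of the gene starts are shown for the 5 genes with a single start in the promoter table used here. Their part in the changes was not tested. That table was taken from RefSeq on GRCh38.p14. The table held all 10 genes, and ALOXE3, CERS3, PNPLA1, ABHD5 and ABCA12 have several starts there. Each line gives the 250 bases up to the annotated start, 5′ to 3′ on the gene's strand. Capitals mark matches, on either strand, to GGGCGG, known as the GC box, to GGGNGTG, a motif of KLF4 type, or to TATAAA, known as the TATA box.
ELOVL4, chr6:79947554-79947803, minus strand: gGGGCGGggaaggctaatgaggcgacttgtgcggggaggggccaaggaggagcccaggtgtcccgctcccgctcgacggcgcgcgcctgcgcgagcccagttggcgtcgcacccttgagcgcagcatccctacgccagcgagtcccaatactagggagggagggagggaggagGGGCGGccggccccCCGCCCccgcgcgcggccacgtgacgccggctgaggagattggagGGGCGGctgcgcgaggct
CYP4F22, chr19:15508275-15508524, plus strand: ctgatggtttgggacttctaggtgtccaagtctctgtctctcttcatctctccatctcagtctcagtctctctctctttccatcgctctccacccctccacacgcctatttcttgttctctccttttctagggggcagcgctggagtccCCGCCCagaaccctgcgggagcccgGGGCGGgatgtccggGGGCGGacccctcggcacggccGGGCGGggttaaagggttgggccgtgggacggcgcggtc
UGCG, chr9:111896564-111896813, plus strand: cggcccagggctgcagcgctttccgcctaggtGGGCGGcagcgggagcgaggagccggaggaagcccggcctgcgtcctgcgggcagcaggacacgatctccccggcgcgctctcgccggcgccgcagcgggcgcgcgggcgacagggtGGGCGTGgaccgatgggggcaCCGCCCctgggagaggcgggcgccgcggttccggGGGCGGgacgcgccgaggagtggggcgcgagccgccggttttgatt
ALOX12B, chr17:8087717-8087966, minus strand: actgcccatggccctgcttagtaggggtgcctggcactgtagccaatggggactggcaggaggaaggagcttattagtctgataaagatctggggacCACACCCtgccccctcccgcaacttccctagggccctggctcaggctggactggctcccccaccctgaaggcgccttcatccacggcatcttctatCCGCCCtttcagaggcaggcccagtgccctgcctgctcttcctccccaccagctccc
SDR9C7, chr12:56934409-56934658, minus strand: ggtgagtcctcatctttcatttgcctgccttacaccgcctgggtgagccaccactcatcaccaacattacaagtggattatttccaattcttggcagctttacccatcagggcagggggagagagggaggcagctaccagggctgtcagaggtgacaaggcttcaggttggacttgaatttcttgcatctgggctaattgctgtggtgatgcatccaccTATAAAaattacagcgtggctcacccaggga

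The GC box stood in 4 of these 5 windows, all but SDR9C7, and in 42.6% of the 35116 windows of this length in the table. CYP4F22 and ELOVL4 held 4 GC boxes each and UGCG held 3. ALOX12B and UGCG also held 1 KLF4-type match each, a motif found in 27.1% of windows. SDR9C7 alone held a TATA box, beginning 31 bases ahead of its start, which 10.7% of windows hold. TGANTCA, bound by AP-1, and AACNNGTT, of the GRHL type, matched 0 of the 5 windows, against 6.57% and 3% of all windows. No match overlapped one of another motif, and a match describes letters only. The G and C content was 74.4% for ELOVL4, 63.2% for CYP4F22, 78.4% for UGCG, 62.8% for ALOX12B and 51.2% for SDR9C7, against a median of 58.0% over all windows.

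With EGBG, all 10 genes were lower than in day 6 cells, against 17.7% of all features called lower and 39% called in either direction. Their median difference was -1.87 and that of all features 0.07. The 4 EGBG arrays lay below the 4 day 6 arrays for all 10, against 14.4% of features. SDR9C7, counted here among the 10, was undetected on all 4 EGBG arrays and was kept for testing through the groups where it is higher. This comparison and the one before share the day 6 arrays. Among the other 9 genes, EGBG levels as a share of the day 6 level ran from 7.68% for CYP4F22 to 57.3% for CERS3.

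CYP4F22 had the largest difference of these 9. Its log2 signals were 6.11, 7.40, 6.97 and 7.31 with EGBG, against 10.09, 11.10, 10.19 and 11.22 in day 6 cells, a difference of -3.70 ± 0.25 (adjusted p = 1.62e-11). Of the EGBG arrays, 3 of 4 detected it. The other enzymes of chain making and joining fell less. ELOVL4 had 12.09, 11.83, 11.86 and 11.94 with EGBG and differed by -1.39 ± 0.16 (adjusted p = 1.76e-07). CERS3, at 9.55, 9.39, 9.22 and 9.33 with EGBG, differed by -0.80 ± 0.15 (adjusted p = 0.000156), the smallest fall of the 10.

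PNPLA1 had 6.49, 7.49, 6.77 and 7.08 with EGBG, against 8.72, 9.22, 8.62 and 9.43 in day 6 cells. The difference was -2.04 ± 0.18 (adjusted p = 2.38e-09), with 3 of 4 EGBG arrays detecting the gene. Its coactivator ABHD5 stood at 49.8% of the day 6 level, with a difference of -1.01 ± 0.17 (adjusted p = 3.1e-05). Here the gap between groups was narrow, since the highest EGBG array was at 10.18 and the lowest day 6 array at 10.43.

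UGCG fell to 8.68, 8.45, 8.89 and 8.83 with EGBG, against 10.55, 10.20, 10.75 and 11.13 in day 6 cells, a difference of -1.94 ± 0.22 (adjusted p = 1.14e-07). ABCA12, which moves the product of UGCG into the granules, had 6.75, 7.50, 7.81 and 7.20 with EGBG, against 9.47, 9.73, 9.999 and 9.70. That difference, -2.41 ± 0.18, came next in size after CYP4F22 (adjusted p = 1.89e-10). Both genes were detected on all 8 arrays.

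Both lipoxygenases had falls of similar size. ALOX12B differed by -1.86 ± 0.25, with EGBG arrays at 10.57, 11.39, 10.54 and 11.24, and ALOXE3 by -1.88 ± 0.12, with EGBG arrays at 7.60, 7.92, 7.78 and 7.65 (adjusted p = 2.43e-06 and 1.24e-11). SDR9C7 was undetected on all 4 EGBG arrays, at 6.35, 6.03, 6.18 and 5.85, and was at least 2.44-fold lower than in day 6 cells (adjusted p = 3.89e-05).

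EGBG cells were nevertheless above undifferentiated cells in 8 of the 10 genes, against 23.1% of features called higher and 49.1% called in either direction. The median was 1.64, or 0.90 at the bounds. Among the 8, ALOX12B, CYP4F22, PNPLA1 and ABCA12 were kept for testing through the differentiated groups, so their direction was built into their being tested. ALOX12B was 4.57 ± 0.25 higher than in undifferentiated cells. That is 71.1% of its log2 rise at day 6, while its EGBG level was 27.6% of the day 6 level. ELOVL4, ABHD5 and CERS3 stood at 65.1%, 65.1% and 63.9% of their log2 rises, with differences of 2.60 ± 0.16, 1.88 ± 0.17 and 1.43 ± 0.15. ALOXE3 stood at 33.7%, a difference of 0.96 ± 0.12. EGBG was added at day 3 and no arrays come from that day, so a rise kept and a rise partly reversed cannot be told apart. The ALOX12B values are fitted against a group mostly at background, since 1 of 4 undifferentiated arrays detected that gene.

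UGCG stood at 19.3% of its log2 rise. Its difference from undifferentiated cells, 0.46 ± 0.22, did not pass the threshold (adjusted p = 0.0791, 95% confidence interval 0.02 to 0.91). The UGCG arrays of the EGBG group, 8.45 to 8.89, lay within or just above the undifferentiated range of 7.70 to 8.77. Without undifferentiated replicate 3 the difference was 0.64 and passed (adjusted p = 0.0197), as it did with array weights (0.53, adjusted p = 0.0419). SDR9C7 was undetected on all arrays of both groups, so no fold is given. ABCA12, PNPLA1 and CYP4F22 were at least 1.79-fold, 1.40-fold and 1.39-fold above undifferentiated arrays that did not detect them.

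When spermidine/spermine was given with EGBG, all 10 genes were higher than with EGBG alone, against 22.2% of features called higher and 51.2% called in either direction. The arrays of the groups did not overlap for any of the 10, against 20% of features, with SDR9C7 set against EGBG arrays that did not detect it. The median difference was 2.16, and that of all features -0.07. EGBG arrays enter this comparison and the one against day 6, so the pair is not independent.

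CYP4F22 had 11.87, 11.65, 11.15 and 11.42 with EGBG plus SDSM, against 6.11, 7.40, 6.97 and 7.31 with EGBG, a difference of 4.57 ± 0.25 (adjusted p = 1.52e-13). ABCA12 had 10.11, 9.84, 10.38 and 10.22 with EGBG plus SDSM and differed by 2.82 ± 0.18. UGCG followed at 11.01, 11.42, 11.63 and 11.91, a difference of 2.78 ± 0.22. PNPLA1 was higher by 2.46 ± 0.18.

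ALOX12B was higher by 2.19 ± 0.25 and ALOXE3 by 2.14 ± 0.12. ABHD5 was higher by 1.503 ± 0.17, ELOVL4 by 1.39 ± 0.16 and CERS3 by 0.90 ± 0.15. SDR9C7, undetected with EGBG, had 7.30, 7.48, 7.88 and 7.84 with EGBG plus SDSM, at least 2.01-fold higher (adjusted p = 0.000178). The adjusted p-values of the other 9 were 2.37e-05 for CERS3 or smaller.

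**Figure D2:**
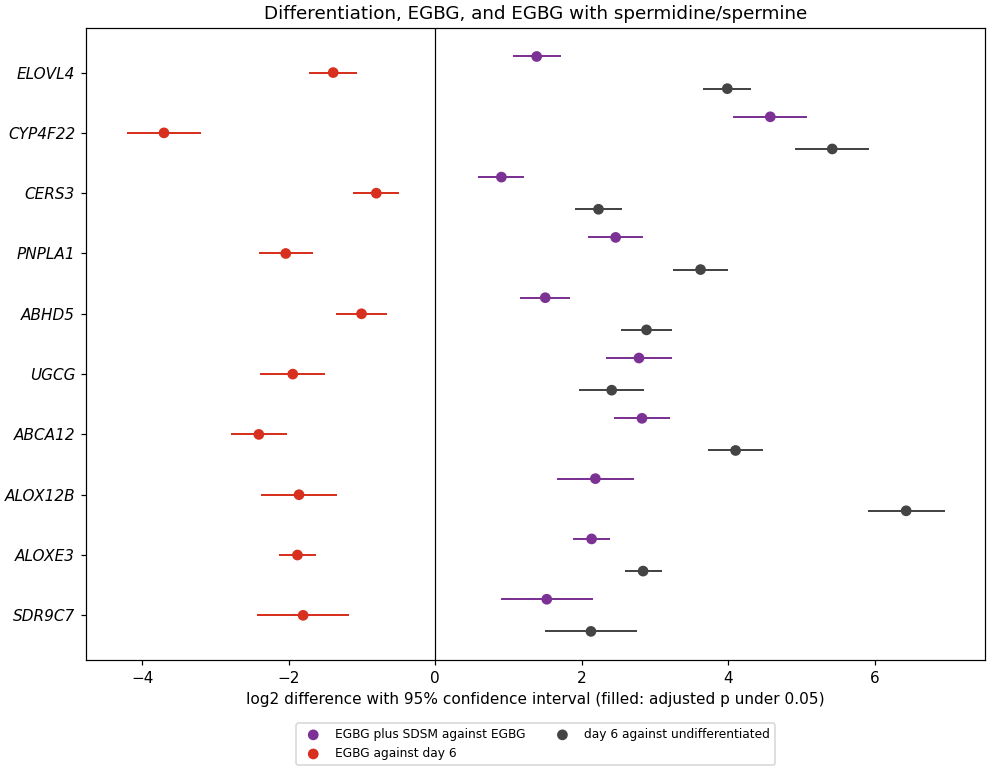
Log2 difference with its 95% confidence interval (horizontal axis) for each gene (vertical axis) in EGBG plus SDSM against EGBG, EGBG against day 6, and day 6 against undifferentiated cells. Filled points have an adjusted p under 0.05, which holds for all 10 genes in each comparison. CYP4F22 lies farthest from 0 in both comparisons with EGBG, at 4.57 and -3.70, and CERS3 nearest, at 0.90 and -0.80. Points of SDR9C7 against EGBG and of the 4 genes undetected in undifferentiated cells are fitted values against background.

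The EGBG effect in the presence of spermidine/spermine minus the effect without it was positive in all 10 genes and past the threshold in all 10, against 9.72% of features called positive and 18.5% called in either direction. It ran from 0.90 ± 0.22 for CERS3 (adjusted p = 0.0041) to 3.26 ± 0.35 for CYP4F22 (adjusted p = 2.04e-07). ALOX12B was at 2.25 ± 0.36, ABCA12 at 2.02 ± 0.26 and ALOXE3 at 1.81 ± 0.17. SDR9C7 was the least secure, at 1.29 ± 0.43 with an adjusted p of 0.0365, and it rests on EGBG arrays that did not detect the gene. Its call was lost without any 1 of 9 of the 16 arrays, namely day 6 replicates 1 and 3, EGBG replicates 2 and 4, EGBG plus SDSM replicates 3 and 4 and SDSM replicates 1, 2 and 4, with differences of 0.99 to 1.27 and adjusted p-values of 0.0592 to 0.0877. With all arrays kept, it was lost with an offset of 50, with the mean of the probes, with no filter on detection and in a fit of only the 4 groups compared (adjusted p = 0.0681, 0.0945, 0.117 and 0.0745). On the other probes of SDR9C7 the interaction was 1.37 and 0.84 and did not pass (adjusted p = 0.113 and 0.301). CERS3 did not pass in the second deposited table (0.93, adjusted p = 0.0734).

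In cells that received spermidine/spermine, adding EGBG moved none of the 10 genes past the threshold in limma, against 0.988% of features called. At an unadjusted p under 0.05 there was 1, ABCA12, at -0.39 ± 0.18 (adjusted p = 0.328). EGBG plus SDSM minus SDSM ranged from -0.51 for SDR9C7 to 0.39 for ALOX12B. The 95% intervals of the 10 genes together spanned -1.14 to 0.91. For ALOXE3, CERS3, ABHD5 and ELOVL4 they stayed between -0.34 and 0.41. A p that misses the threshold does not show equal levels.

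EGBG plus SDSM was above day 6 in 3 genes and below it in 0, against 8.72% of features called higher and 16.4% in either direction. UGCG was higher by 0.84 ± 0.22 (adjusted p = 0.00936), CYP4F22 by 0.87 ± 0.25 (adjusted p = 0.0167) and ABHD5 by 0.50 ± 0.17 (adjusted p = 0.0423), but the arrays of the groups overlapped for each of them. The UGCG call held without any 1 of the 8 arrays. That of CYP4F22 was lost without day 6 replicate 1 (0.69, adjusted p = 0.0793), day 6 replicate 3 (0.72, adjusted p = 0.0617) or EGBG plus SDSM replicate 1 (0.76, adjusted p = 0.0649), and that of ABHD5 without day 6 replicate 1 (0.28, adjusted p = 0.208), day 6 replicate 4 or EGBG plus SDSM replicate 1, 2 or 4 (0.43 to 0.52, adjusted p = 0.0702 to 0.123). Neither call held with array weights (CYP4F22 0.55, ABHD5 0.41) or with no filter on detection (adjusted p = 0.0513 and 0.0815). In a fit of these 8 arrays alone 0 genes passed, with UGCG at an adjusted p of 0.0566. ELOVL4 stood at 99.5% of the day 6 level (95% interval of the log2 difference -0.34 to 0.32) and CERS3 at 107% (-0.22 to 0.41). SDR9C7 stood at 82.3% (-0.91 to 0.35).

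Spermidine/spermine without EGBG raised 4 genes over day 6 and lowered 0, against 12.3% of features called higher and 25.4% in either direction. CYP4F22 had 11.79, 11.98, 12.17 and 11.93 in SDSM cells, against 10.09, 11.10, 10.19 and 11.22 in day 6 cells, a difference of 1.32 ± 0.25 (adjusted p = 0.000313). UGCG had 12.02, 11.74, 11.61 and 11.94, against 10.55, 10.20, 10.75 and 11.13, a difference of 1.17 ± 0.22 (adjusted p = 0.000282). All 4 SDSM arrays lay above all 4 day 6 arrays for both genes.

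ABCA12 was higher by 0.81 ± 0.18 (adjusted p = 0.00206) and PNPLA1 by 0.74 ± 0.18 (adjusted p = 0.00331), also without overlap. ALOXE3 did not overlap either, at 0.32 ± 0.12, but did not pass (adjusted p = 0.0558), and 10.6% of features lay wholly higher. ABHD5, at 0.44 ± 0.17, came as close (adjusted p = 0.0533). Both passed with cyclic loess, with an offset of 50 and with the filter at 12 arrays (adjusted p = 0.0278, 0.0366 and 0.0485 for ALOXE3, 0.0128, 0.0437 and 0.0484 for ABHD5), and ABHD5 also in the second deposited table. ELOVL4, CERS3 and ALOX12B differed by 0.00, 0.00 and -0.06, with intervals of -0.33 to 0.33, -0.31 to 0.32 and -0.58 to 0.46.

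Putrescine lowered 3 genes relative to day 6 and raised 0, against 7% of features called lower and 16.6% in either direction. PNPLA1 had 8.23, 8.28, 8.27 and 8.25 in PUT cells, against 8.72, 9.22, 8.62 and 9.43 in day 6 cells, a difference of -0.74 ± 0.18 (adjusted p = 0.00705). CERS3 had 9.72, 9.71, 9.37 and 9.38, against 10.18, 10.20, 10.33 and 9.995, a difference of -0.63 ± 0.15 (adjusted p = 0.00625). For both genes, and for ALOXE3, which did not pass, every PUT array lay below every day 6 array, against 7.61% of features. The call of CERS3 was lost in the second deposited table (-0.62, adjusted p = 0.098).

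SDR9C7 was lower by 1.06 on the log2 scale with putrescine (-1.06 ± 0.30, adjusted p = 0.0191), with 2 of 4 PUT arrays detecting it. The groups overlapped, and the call was lost without day 6 replicate 1 (-0.76, adjusted p = 0.098) or without day 6 replicate 3, PUT replicate 1 or PUT replicate 2 (-0.93 to -0.95, adjusted p = 0.0522 to 0.0679). It was also lost with no filter on detection, in a fit of only the groups compared, with array weights (-0.72) and on probe ILMN_3249101 (adjusted p = 0.0635, 0.0651, 0.055 and 0.077). ALOXE3 at -0.35 ± 0.12 and ELOVL4 at -0.44 ± 0.16 came just short (adjusted p = 0.0536 and 0.0575), and both passed with an offset of 50 in the background correction and with array weights. ALOXE3 also passed with the filter at 12 arrays and in the second deposited table, and ELOVL4 with cyclic loess. CYP4F22, UGCG and ABCA12, which were higher with spermidine/spermine, differed by 0.23 ± 0.25, 0.31 ± 0.22 and 0.04 ± 0.18 with putrescine.

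Both SDSM and PUT are labelled 1 mM, but the doses may not match, since the labels do not say how much of each polyamine SDSM held. Set directly against each other, SDSM was above PUT in 7 genes and below it in 0, against 7.1% of features called higher and 17% in either direction. Putrescine is the diamine to which aminopropyl groups are added to give spermidine and spermine. PNPLA1 had 9.58, 9.70, 9.79 and 9.90 in SDSM cells, against 8.23, 8.28, 8.27 and 8.25 in PUT cells, a difference of 1.48 ± 0.18 (adjusted p = 6.87e-06). The next were SDR9C7 at 1.29 ± 0.30 (adjusted p = 0.00454) and CYP4F22 at 1.09 ± 0.25 (adjusted p = 0.0033). For SDR9C7 SDSM replicate 3 stood at 9.06 and the other three between 7.66 and 7.94.

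UGCG, ABCA12, ALOXE3 and CERS3 were higher by 0.86 ± 0.22, 0.77 ± 0.18, 0.67 ± 0.12 and 0.64 ± 0.15, with adjusted p-values from 0.000548 to 0.00733. The 3 genes not past the threshold were ELOVL4 at 0.44 (95% interval 0.12 to 0.77, adjusted p = 0.0563, past the threshold with cyclic loess, an offset of 50 or array weights), ALOX12B at 0.19 (-0.33 to 0.72) and ABHD5 at 0.19 (-0.16 to 0.53). All SDSM arrays lay above all PUT arrays in 9 genes, ALOX12B being the exception, against 9.75% of features.

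**Figure D3:**
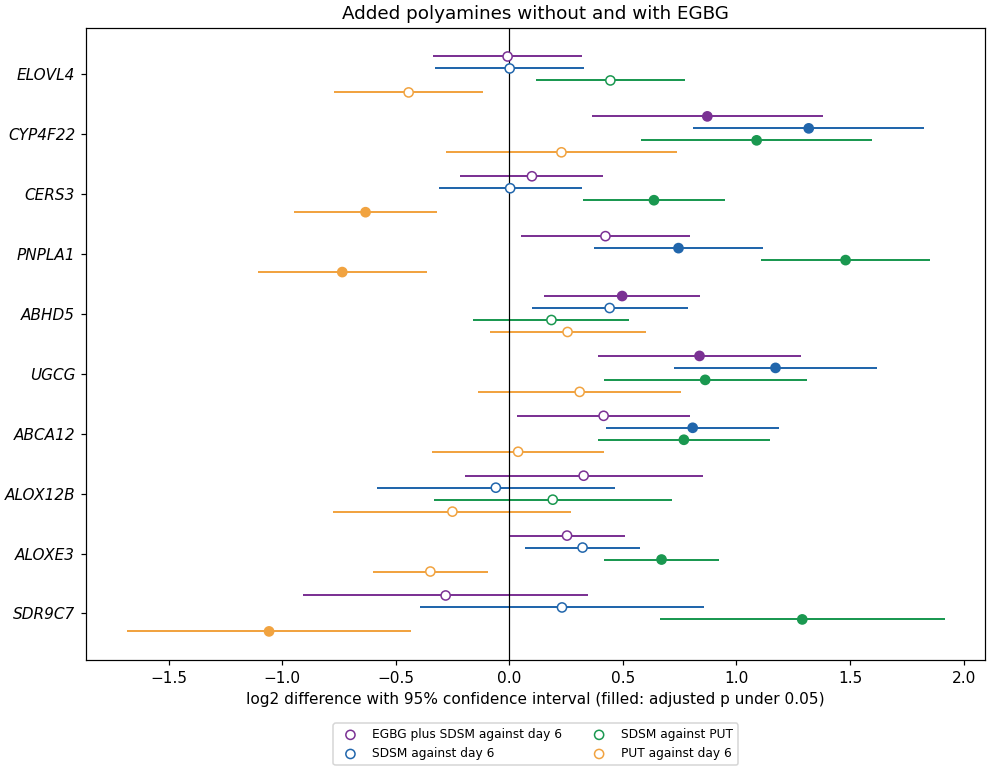
Log2 difference with its 95% confidence interval (horizontal axis) for each gene (vertical axis) in EGBG plus SDSM against day 6, SDSM against day 6, SDSM against PUT and PUT against day 6. Filled points have an adjusted p under 0.05, and the comparisons share arrays. SDSM against PUT is above 0 in all 10 genes, and PUT against day 6 is past the threshold only below 0, in PNPLA1, CERS3 and SDR9C7.

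In the order of the 6 group means, undifferentiated cells were lowest and EGBG cells next in 9 genes, although for UGCG that step did not pass the threshold. SDR9C7 was undetected in both groups, which therefore have no order. The step from EGBG to the next group was past the threshold in 8 of these 9 genes. The exception was CERS3, where EGBG averaged 9.37 ± 0.13 and PUT 9.54 ± 0.20 (SD), a difference of -0.17 ± 0.15 (adjusted p = 0.377). SDSM cells had the highest mean for CYP4F22, UGCG, ABCA12, PNPLA1, ALOXE3, SDR9C7 and ELOVL4, and EGBG plus SDSM cells for ALOX12B, ABHD5 and CERS3, but 0 of the 10 genes separated these groups. PUT cells came just above EGBG cells for ALOX12B, ALOXE3, CERS3, PNPLA1, SDR9C7 and ELOVL4, though not on every probe of SDR9C7. For CYP4F22, ABHD5, UGCG and ABCA12 that place was taken by day 6 cells, and PUT minus day 6 did not pass in any of these 4.

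For SDR9C7, the probe standing for the gene, ILMN_2133090, and the probe ILMN_3249101 were each detected on 14 of 24 arrays, and ILMN_1739882 on 4. None of the 3 was detected on an EGBG array. The EGBG means of the standing probe, ILMN_3249101 and ILMN_1739882 were 6.10, 5.91 and 5.69, against 7.90, 7.90 and 6.73 in day 6 cells. In EGBG plus SDSM cells the means were 7.62, 7.54 and 6.31. SDSM minus day 6 differed in sign, at 0.23 and 0.26 for the brighter probes and -0.22 for ILMN_1739882, and did not pass for any of them in a fit of all 14304 kept probes. On ILMN_1739882 alone, EGBG plus SDSM against EGBG and SDSM against PUT did not pass either (adjusted p = 0.162 and 0.0918). In that fit EGBG minus PUT passed on the standing probe (-0.75, adjusted p = 0.0462) but not on ILMN_3249101 (-0.92, adjusted p = 0.07). On ILMN_1739882, undetected in both groups, it was 0.09 (adjusted p = 0.858). On all 3 probes day 6 replicate 1 was the highest day 6 array and SDSM replicate 3 the highest SDSM array.

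ABCA12 had a second probe, ILMN_1750250, that was detected on 2 of 24 arrays and left out of the tests. Both of those arrays were SDSM arrays. Its signals on all 4 SDSM arrays, detected or not, were 6.26, 6.19, 6.55 and 6.71. On the day 6 arrays, which did not detect it, they were 5.58, 5.39, 5.81 and 5.87. The values of ABCA12 above are those of ILMN_2361400, detected on all 20 differentiated arrays. The 2 probes are annotated to different transcript records, so the ABCA12 results rest on the probe of a single record.

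The tested features with the most similar pattern were found by the root mean square difference of the 6 group means after centring each gene. ALOXE3 was nearest to KRT78 (0.10) and APPL2 (0.13), UGCG to SERPINA3 (0.09) and CPEB4 (0.10), and CERS3 to KLC3 (0.08) and MOSPD1 (0.09). ABHD5 was nearest to TUFT1 (0.09) and GRHL3 (0.11), and ELOVL4 to DEFB1 (0.12) and SASH1 (0.16). ALOX12B had ATP12A (0.19) and KLK7 (0.33), CYP4F22 had LYPD5 (0.18) and CD36 (0.28), and PNPLA1 had ACKR2 (0.18) and MAP1LC3A (0.21). ABCA12 had ATP6V1C2 (0.21) and MAP1LC3A (0.24), and SDR9C7 had RPSA2 (0.13), a close copy of RPSA, and DLGAP4 (0.17). For comparison, the median distance to all features ran from 0.90 for CERS3 to 2.58 for CYP4F22. The nearest of the other 9 genes was at 0.33 or more, from far fewer candidates than the named features.

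Genes that act beside these 10 were followed in 6 further lists. A listed gene undetected in a group was kept for testing through groups where it is higher. The direction of such a call was built into its being tested, and the shares called below include such genes. Of the 14 listed lipid envelope partners, 9 were tested. In EGBG against day 6, 7 fell and 0 rose (median -1.11), and in day 6 against undifferentiated, 8 rose and 0 fell (median 3.21). Calls made up 77.8% and 88.9% of the 9, against 39% and 57.6% of all features, of which 17.7% were lower with EGBG and 23.8% higher at day 6. TGM5, a transglutaminase, fell by 3.76 on the log2 scale with EGBG and was 4.07 ± 0.17 higher with EGBG plus SDSM than with EGBG. TGM1, the transglutaminase whose loss gives lamellar ichthyosis, and SULT2B1, which sulfates cholesterol, were at -1.75 ± 0.22 and -1.91 ± 0.23 with EGBG, after rises of 4.47 ± 0.22 and 5.28 ± 0.23 at day 6. LIPN, a lipase of the granular layer, was undetected with EGBG and at least 3.93-fold lower than in day 6 cells. TGM3 rose at least 38.2-fold at day 6 and differed by -1.05 ± 0.21 with EGBG.

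Fatty acid synthesis and elongation genes were divided. Of 25 listed, 18 were tested, and in EGBG against day 6, 5 fell and 2 rose (median -0.06). In day 6 against undifferentiated, 7 rose and 6 fell (median -0.07). The share called with EGBG, 38.9%, was that of all features (39%), and at day 6 it was 72.2%, against 57.6%. The elongases ELOVL3, ELOVL7 and ELOVL1 differed by -2.23 ± 0.18, -2.10 ± 0.17 and -1.69 ± 0.16 with EGBG. HACD3, a dehydratase of the elongation cycle, had opposite signs to these, at 1.49 ± 0.12 with EGBG and -1.30 ± 0.12 at day 6. ACSL1, which activates fatty acids with coenzyme A, rose by 5.14 ± 0.16 at day 6 and differed by -0.57 ± 0.16 with EGBG. FADS1, a desaturase, was undetected in day 6 cells and at least 4.49-fold lower than in undifferentiated cells.

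Among sphingoid base and ceramide synthesis genes, 10 of 16 were tested, of which 4 fell and 3 rose with EGBG (median -0.41) and 5 rose and 3 fell at day 6 (median 0.19). Calls were 70% and 80% of the 10, against 39% and 57.6% of all features. SPTSSB, a small subunit of serine palmitoyltransferase, rose at least 41.2-fold at day 6, differed by -3.33 ± 0.16 with EGBG and was 3.29 ± 0.16 higher with EGBG plus SDSM. SPTSSA, the other small subunit, differed by -0.99 ± 0.15 with EGBG. DEGS1, the ceramide desaturase, differed by -1.28 ± 0.24 with EGBG and by -0.78 ± 0.24 in SDSM against day 6. CERS6, a ceramide synthase for shorter chains, ran opposite to CERS3, at 1.26 ± 0.19 with EGBG and -1.14 ± 0.19 at day 6.

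Of 21 glucosylceramide and sphingomyelin processing genes, 14 were tested, with 7 lower and 2 higher in EGBG against day 6 (median -0.64) and 7 higher and 4 lower at day 6 (median 0.33). That is 64.3% and 78.6% called, against 39% and 57.6% of all features. ACER1, an alkaline ceramidase of the epidermis, was undetected with EGBG and at least 1.70-fold lower. SMPD3, a neutral sphingomyelinase, was undetected with EGBG and at least 4.76-fold higher with EGBG plus SDSM. SMPD3 was also 2.16 ± 0.20 higher in SDSM than in day 6 cells. ACER3 differed by -1.02 ± 0.16 with EGBG, and SMPD1, the acid sphingomyelinase, was undetected there and at least 1.51-fold lower. GLTP, a glycolipid transfer protein, rose by 1.84 ± 0.10 at day 6 and was at -0.07 ± 0.10 with EGBG, and B4GALT5, which extends glucosylceramide to lactosylceramide, differed by -1.38 ± 0.21 at day 6 and -0.11 ± 0.21 with EGBG.

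Lipid droplet partners of ABHD5 gave 9 tested genes of 18, with 4 lower and 1 higher with EGBG (median 0.00) and 4 higher and 1 lower at day 6 (median 0.40). The share called was 55.6% in both, against 39% of all features with EGBG and 57.6% at day 6, so the day 6 share was near that of all features. MGLL, monoglyceride lipase, and CIDEA, a droplet fusion protein, were undetected with EGBG and at least 4.28-fold and 2.90-fold lower. DGAT2, which makes triglyceride, rose at least 4.15-fold at day 6 and differed by -0.60 ± 0.22 with EGBG. HILPDA, a lipase inhibitor, was higher with EGBG, by 0.93 ± 0.25. PLIN3, a droplet coat protein, differed by -0.72 ± 0.20 at day 6.

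Of 21 genes of lamellar granule assembly and other ABCA transporters, 11 were tested, with 7 lower and 1 higher with EGBG (median -0.46) and 7 higher and 1 lower at day 6 (median 1.10). The share called was 72.7% in both, against 39% and 57.6% of all features. TMEM79, a membrane protein of lamellar granules, rose by 3.96 ± 0.15 at day 6 and differed by -1.38 ± 0.15 with EGBG. ABCG1, a sterol exporter, differed by 2.65 ± 0.22 and -1.23 ± 0.22. ABCA4, known from photoreceptors, was undetected with EGBG, at least 2.32-fold below day 6, and at least 10.1-fold higher with EGBG plus SDSM. It was also higher in SDSM and in PUT cells than in day 6 cells, by 2.69 ± 0.24 and 2.08 ± 0.24. MYO5B, a vesicle motor, rose by 2.25 ± 0.14 at day 6, with -0.19 ± 0.14 with EGBG, and ABCA13 was undetected in EGBG, day 6 and undifferentiated cells alike.

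**Figure D4:**
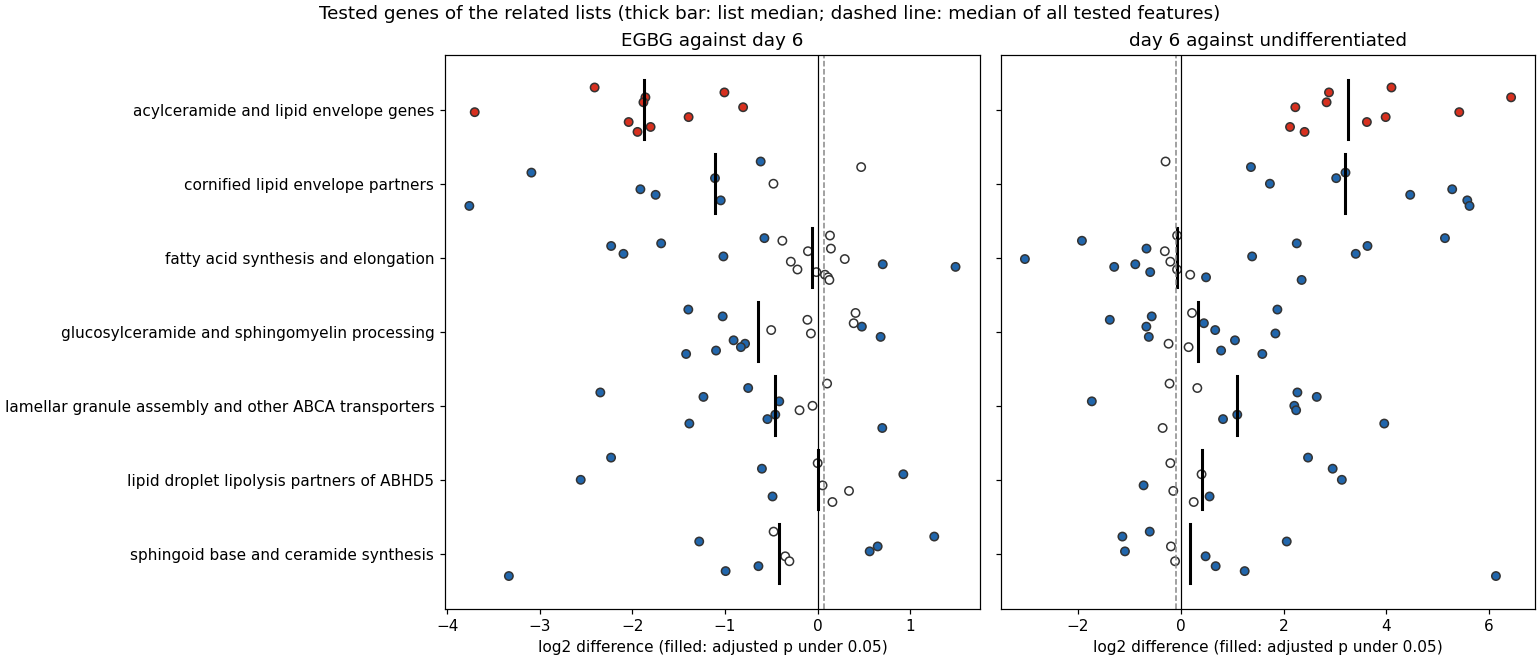
Log2 difference of each tested gene (horizontal axis) by list (vertical axis), in EGBG against day 6 and in day 6 against undifferentiated cells. Filled points have an adjusted p under 0.05, thick bars are list medians, and the dashed line is the median of all features. The 10 acylceramide and lipid envelope genes, with medians of -1.87 and 3.25, lie on 1 side of 0 in each panel, while points of each other list lie on both sides.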

How the data were processed

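Total RNA of N/TERT1 cells was measured on 24 bead arrays, grouped by their labels. The table of main use, deposited by the authors, holds linear, background-subtracted intensity values, not normalized between arrays, from -67.97 to 68803.6. A second deposited table gave the detection p-value of each probe and array, per the file headers. Its signals, 65.7% of which stand at a floor of 40, served only as an alternative. The submitters' processing notes name GenomeStudio, with no version or setting given in the sources used here.

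Probes were named from the annotation supplied with the platform, in which 30102 probes have 1 symbol, 8 have several and 17194 have none. The neqc function (limma 3.58.1, R 4.3.3) turned the deposited intensities into log2 values here, by normexp correction with an offset of 16 and quantile normalization. A detection p under 0.01 on 4 or more arrays was asked of a probe, which left 14304, the brightest standing for a gene. The fit (lmFit, eBayes) held all 6 groups, with 18 residual degrees of freedom, without covariates. Contrasts were two-sided, with Benjamini-Hochberg adjustment over 12149 features. Bounds compare the brighter group's mean with the mean over the dim group's arrays of the higher of the lowest detected signal and the gene's own. The procedure was tested on simulated data. The number of arrays limits the precision.

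The 10 genes, the lists and the alternatives were chosen with earlier results of these data known. Named genes are the 10, up to 4 of each other list past the threshold with the largest change at day 6 and up to 4 with EGBG, and the 2 nearest in pattern of each of the 10. HACD1, ACSL3, SPTLC3, SPHK2, PLIN4, TP63 and DCT had no probe of a single symbol and were not analysed here.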

Additional observations from a re-analysis of the deposited data

Results flagged for a closer look

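ALOX12B on day 6 replicate 3 stood at 11.94, far from the other three day 6 arrays at 13.05 to 13.13. It was the 1 value of 60 sets of 4 arrays to stand apart by Dixon's criterion, which chance alone meets in about 1 of 20. Left out, it turned the sign of 0 called results.

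The EGBG effect differed between cells with and without spermidine/spermine in all 10 genes, by the interaction term of the fit, against 9.72% of features called in that direction. The call of SDR9C7, undetected with EGBG, was lost under 4 alternatives that kept all arrays (adjusted p = 0.0681 to 0.117) and on its other probes, and that of CERS3 in the second deposited table (adjusted p = 0.0734). The difference (EGBG effect with spermidine/spermine minus effect without) was 3.26 for CYP4F22, 2.25 for ALOX12B, 2.02 for ABCA12, 1.81 for ALOXE3, 1.72 for PNPLA1, 1.61 for UGCG, 1.38 for ELOVL4, 1.29 for SDR9C7, 1.06 for ABHD5 and 0.90 for CERS3.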

How the results depend on the processing

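The calls of all 10 genes in EGBG against day 6, in EGBG plus SDSM against EGBG and in day 6 against undifferentiated cells held under every alternative that measured all 10, and without any 1 array, except that SDR9C7 on probe ILMN_1739882 alone did not pass in EGBG plus SDSM against EGBG (0.62). Over the alternatives that kept all arrays, 915 of 960 single-gene results kept their direction and side of the threshold. With 1 array left out, 829 of 880 did. The second table's signals held CYP4F22, PNPLA1, SDR9C7 and ABCA12 at the floor on every array. Among the 6 genes left it called 6 in day 6 against undifferentiated, 6 in EGBG against day 6, 6 in EGBG plus SDSM against EGBG, 5 in EGBG against undifferentiated, 5 in the interaction, 2 in SDSM against day 6, 3 in SDSM against PUT and 1 in PUT against day 6. Of all features it called 1298 in EGBG plus SDSM against day 6 (1994 in the main analysis), 1213 in PUT against day 6 (2015), 1347 in SDSM against PUT (2069) and 61 in EGBG plus SDSM against SDSM (120).

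That last count was 78 with cyclic loess, 306 with the replicate number as a block, 263 with array weights and 3 with only the groups compared. EGBG plus SDSM against day 6 called 1 gene with no filter on detection, 1 with array weights and 0 with only the groups compared, a fit that called 851 features there and 1944 in SDSM against day 6 (3083). PUT against day 6 called 5 genes with an offset of 50. Calls of single genes that an alternative with all arrays changed are named beside their values in the results above, apart from the replicate block.

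Among values that never passed the threshold, signs turned as follows. Cyclic loess put ELOVL4 at 0.046 in EGBG plus SDSM against day 6 and ALOX12B at 0.059 in SDSM against day 6. The second table put them at 0.12 and 0.18, and ELOVL4 at 0.045 in EGBG plus SDSM against SDSM. Array weights put SDR9C7 at 0.11 in EGBG plus SDSM against day 6, ELOVL4 at -0.070 in SDSM against day 6 and CYP4F22 at -0.075 in PUT against day 6. The SDR9C7 probe ILMN_1739882, an alternative chosen after seeing the data, gave -0.22 in SDSM against day 6. The causes were not tested.

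With 1 array left out, the 10 genes gave 1 to 3 calls in EGBG plus SDSM against day 6, 2 to 4 in PUT against day 6, 4 to 5 in SDSM against day 6, 7 to 8 in SDSM against PUT and 9 to 10 in the interaction. All features gave 30 to 199 calls in EGBG plus SDSM against SDSM and 1194 to 2070 in PUT against day 6. Signs turned in EGBG plus SDSM against day 6 for ELOVL4 (-0.16 to 0.13) and SDR9C7 (-0.57 to 0.020), and in EGBG plus SDSM against SDSM for ABHD5 (-0.0088 to 0.11) and ELOVL4 (-0.091 to 0.095). They turned in SDSM against day 6 for ALOX12B (-0.34 to 0.052), CERS3 (-0.11 to 0.077), ELOVL4 (-0.15 to 0.14) and SDR9C7 (-0.076 to 0.53), and in PUT against day 6 for ABCA12 (-0.051 to 0.17).

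Higher calls made up 54.7% of all calls in EGBG against day 6, 43.4% with cyclic loess and 36.8% in the second table. They were 41.7% in SDSM against PUT (52.3% with cyclic loess), 52.6% in the interaction (70.4% in the second table) and 56.7% in EGBG plus SDSM against SDSM (67.4% without background correction).

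Replicate numbers were shared across groups, but the labels do not say what they mark. Of 60 same-numbered pairs of arrays, 43 had deviations correlated over 0.1 (lowest -0.26, median 0.23, against -0.064 for other numbers), and 18 of 24 arrays correlated best with their own number. This is a hint of pairing from the data and not from the design, and since 17 pairs stayed at or under 0.1 the numbers were not taken as pairs. With the replicate block ELOVL4 passed in PUT against day 6 (-0.44) and in SDSM against PUT (0.44), and UGCG in EGBG against undifferentiated (0.46), and no other call of the 10 genes changed. The slide as a block was not run, since the headers used here name no slide. SDR9C7 is limited by signal over background, with 14 of 24 arrays detecting it.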
